A study of Mus musculus with 21 samples.

Results

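The 10 genes described here, Zbtb16, Gfra1, Ret, Nanos2, Nanos3, Lin28a, Sall4, Foxo1, Id4 and Uchl1, are markers and regulators of undifferentiated spermatogonia, and all 10 were found by symbol among the 37620 genes of an RNA-seq table. The table held germ cells enriched from the testes of C57BL/6J (B6) mice at 12 dpp (days post-partum) by digestion with collagenase and trypsin, and the labels call the cells spermatocytes. Under each of 4 sample numbers (186wt, 343wt, 444wt, 456wt) stood 3 libraries, 12 in all, of the same strain and age and with no treatment named. Each level is in FPKM (fragments for each kilobase of a transcript, scaled by library depth), the mean of the 3 libraries of a number was taken as 1 sample, and means ± SD are over the 4 samples. The study describes RNA from 4 replicates of B6 germ cells, and the 4 numbers are read here as these replicates of 1 condition. The 3 libraries of a number may come from 1 RNA, so p-values compare these 4 samples and measure a spread that may be technical. They compare replicates of 1 condition and not groups that were treated differently.

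Undifferentiated spermatogonia are the spermatogonial stem cells and their early progenitors, which divide along the wall of the seminiferous tubule and either renew themselves or go on to differentiate and enter meiosis. Sertoli and peritubular cells send them GDNF, which binds the co-receptor GFRA1 and signals through the kinase RET. Around this signal stand transcription regulators (ZBTB16, SALL4, FOXO1, ID4) and RNA-binding proteins (NANOS2, NANOS3, LIN28A), while the ubiquitin hydrolase UCHL1 is a common protein marker of spermatogonia.

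All 10 genes were detected in every library, at levels from 0.45 FPKM (Nanos2, a library of 186wt) to 439 FPKM (Uchl1, a library of 444wt). Mean levels placed Uchl1 at the 99.7 percentile of all genes in the table, Lin28a at the 93.0 percentile and Nanos2 at the 60.7 percentile. The other 7 lay between the 74.4 percentile (Nanos3) and the 89.5 percentile (Zbtb16 and Sall4). The label spermatocytes was checked against 17 meiotic prophase genes, whose median was 20.2 to 29.9 FPKM in the 4 samples. The libraries thus held transcripts of meiotic prophase genes and of undifferentiated spermatogonia genes together. They also held those of 10 Sertoli cell genes, whose median was higher than that of the meiotic prophase genes, at 65.9 to 108 FPKM. The Sertoli genes summed to 2595 to 4636 FPKM and the meiotic prophase genes to 435 to 722 FPKM. Which cells the transcripts came from was not tested. In such bulk libraries fewer cells of a type and less RNA per cell cannot be told apart.

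The promoters of 4 of these genes are shown because they belong to the lowest gene (Nanos2), its higher paralog (Nanos3), the gene that was lowest in 444wt as deposited (Id4) and the most abundant gene (Uchl1). Each is the 250 bases before the gene start in RefSeq, read 5′ to 3′ on the gene's strand, and each matched NCBIM37 (mm9) at 1 place. Capitals mark hits of 3 motifs, each searched on both strands: the GC box spelled GGGCGG, the box spelled CCAAT and the TATA box spelled TATAAA. No hits overlapped.
Nanos2, chr7:19572623-19572872, plus strand: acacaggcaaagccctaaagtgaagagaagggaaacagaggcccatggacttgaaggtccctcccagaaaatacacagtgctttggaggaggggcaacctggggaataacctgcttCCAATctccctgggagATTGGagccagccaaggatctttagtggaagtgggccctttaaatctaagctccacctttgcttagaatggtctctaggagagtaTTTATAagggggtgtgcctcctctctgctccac
Nanos3, chr8:86700452-86700701, minus strand: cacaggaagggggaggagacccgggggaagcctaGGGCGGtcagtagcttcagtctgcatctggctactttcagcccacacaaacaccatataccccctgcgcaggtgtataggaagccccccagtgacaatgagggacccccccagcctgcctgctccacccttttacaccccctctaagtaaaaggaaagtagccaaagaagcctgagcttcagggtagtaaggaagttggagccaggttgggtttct
Id4, chr13:48356235-48356484, plus strand: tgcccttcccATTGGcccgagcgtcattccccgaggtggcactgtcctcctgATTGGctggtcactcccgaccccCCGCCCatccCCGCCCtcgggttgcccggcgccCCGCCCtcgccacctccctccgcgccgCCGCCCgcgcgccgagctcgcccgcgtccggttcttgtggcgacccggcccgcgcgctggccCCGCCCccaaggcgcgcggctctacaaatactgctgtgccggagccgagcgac
Uchl1, chr5:67067110-67067359, plus strand: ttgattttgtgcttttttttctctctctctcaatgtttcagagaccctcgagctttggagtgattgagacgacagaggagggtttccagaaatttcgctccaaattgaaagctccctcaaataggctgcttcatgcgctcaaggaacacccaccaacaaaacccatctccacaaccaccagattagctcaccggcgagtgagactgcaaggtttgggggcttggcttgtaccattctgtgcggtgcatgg

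The Nanos2 window held a hit of the TATA box near its end, on the opposite strand (TTTATA as shown), 2 CCAAT boxes and no CpG. The Nanos3 window held 1 GC box and 3 CpG. The Id4 window was the most CpG-rich of the 7 windows found, with 35 CpG (97 percentile of 32536 promoters, median 6), 5 GC boxes, 2 CCAAT boxes and a GC content of 75.6%. The Uchl1 window held 7 CpG and none of the 3 boxes. Of all promoters of the same length, 33% held a GC box, 33.8% a CCAAT box and 12.3% a TATA box. Foxo1, Gfra1 and Lin28a had 20, 10 and 7 CpG in their windows. Zbtb16, Ret and Sall4 have no entry.

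The plot of FPKM by library shows the order of the levels. Uchl1 stood alone at 371 ± 53.5 FPKM (SD, n = 4), 9.47 times Lin28a in the mean of the 4 samples. Lin28a followed at 39.8 ± 9.81 FPKM and exceeded Sall4 in 4 of 4 samples, by 1.37 to 1.46 times, although the ranges of the 2 genes overlapped. Sall4 (28.0 ± 7.25 FPKM), Zbtb16 (28.0 ± 4.44 FPKM) and Foxo1 (26.2 ± 2.20 FPKM) had close means, and their order changed with the sample. Sall4 was above Zbtb16 in 2 of 4 samples and Zbtb16 above Foxo1 in 3 of 4. Foxo1 was above Sall4 in 186wt (24.0 against 19.8 FPKM) and below it in 444wt (28.7 against 36.1 FPKM). Ret (18.1 ± 3.63 FPKM) lay below Foxo1 in 4 of 4 samples and above Gfra1 (8.48 ± 1.26 FPKM) in 4 of 4, with no overlap of the ranges in either case. Gfra1, Id4 (7.94 ± 1.09 FPKM) and Nanos3 (6.54 ± 1.35 FPKM) were neighbours whose ranges overlapped. Nanos2 was lowest at 0.844 ± 0.192 FPKM, and Nanos3 exceeded it in 4 of 4 samples. In two-sided exact permutation tests of neighbours over the 4 samples, the smallest p possible is 0.125, so the steps with no overlap could not pass 0.05.

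**Figure D1:**
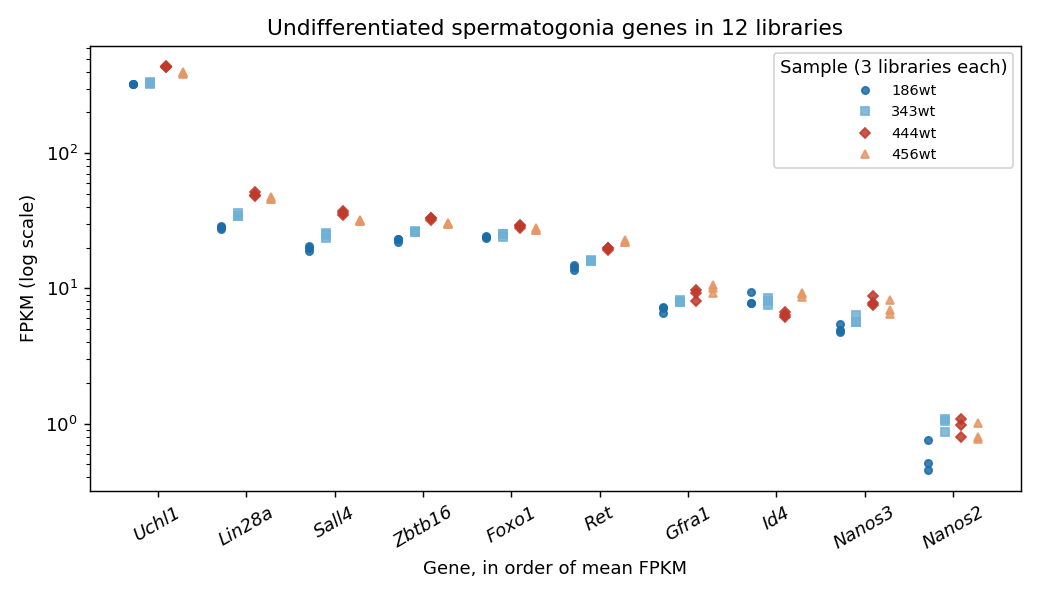
FPKM (log axis) of the 10 undifferentiated spermatogonia genes in each of 12 libraries, ordered by mean level; each point is 1 library, and colour and shape give the sample. Uchl1 lies at 324 to 439 FPKM and Nanos2 at 0.45 to 1.09 FPKM, and for Zbtb16, Ret, Lin28a and Sall4 the libraries of the 4 samples form 4 separate groups.

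Differences between the 4 samples were tested in a limma fit to log2(FPKM + 0.1) of the 12 libraries over the 20795 genes whose mean reached 0.1 FPKM, with Benjamini-Hochberg adjustment over all of them. All 10 undifferentiated spermatogonia genes differed between the samples in the F-test, where 58.2% of all genes tested did, so a call in itself was common. The SD between samples on the log2 scale was 1.46 (Nanos2) to 11.3 (Uchl1) times the SD between libraries of a sample. The direction depended on the scaling. With FPKM as deposited, 9 of the 10 genes were lowest in 186wt (28.1% of all genes tested) and Id4 was lowest in 444wt (21.4%). After the libraries were centred on 6 genes expressed through much of germ cell development (Ddx4, Dazl, Dnd1, Mael, Mov10l1 and Tdrd1; pan-germ centring), 4 of the 10 were lowest in 186wt and 6 in 444wt. That centring moves every difference of a pair of samples by 1 constant, and it moved the median of all genes to 0.42 for 343wt minus 444wt, where it was -0.14 as deposited. In that pair it called 11285 of all genes tested higher and 545 lower. The share of all genes lowest in each sample was not counted after centring. Both scalings are therefore given below.

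Gfra1 (ENSMUSG00000025089, chr19:58310094-58530399, minus strand, NCBIM37) encodes the GDNF co-receptor. Its sample means were 7.02 FPKM in 186wt, 7.97 FPKM in 343wt, 8.99 FPKM in 444wt and 9.93 FPKM in 456wt. Libraries of 186wt did not overlap those of the other samples, while those of 444wt (8.02 to 9.77 FPKM) overlapped those of 343wt (7.87 to 8.16 FPKM) and of 456wt (9.22 to 10.5 FPKM). The span between the extremes was 1.41-fold (F-test adjusted p = 0.0010, limma). As deposited, Gfra1 was lower in 186wt than in 456wt by a log2 difference of -0.49 ± 0.08 (SE), and with pan-germ centring this was -0.15. The difference of 343wt minus 444wt was -0.17 as deposited (adjusted p = 0.0995) and turned to 0.39 with pan-germ centring (adjusted p = 0.000992).

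Ret (ENSMUSG00000030110, chr6:118101766-118147762, minus strand) encodes the receptor kinase that the GDNF and GFRA1 complex activates. It stood at 14.3 FPKM in 186wt, 16.1 FPKM in 343wt, 19.7 FPKM in 444wt and 22.4 FPKM in 456wt, which is the order of Gfra1 too, and no libraries of any 2 samples overlapped. The span was 1.57-fold (adjusted p = 2.52e-07, limma F-test). Ret was called in all 6 pairs of samples as deposited, and the difference of 343wt minus 444wt, -0.29 ± 0.04 (SE), turned to 0.27 with pan-germ centring. The ratio of Ret to Gfra1, which no scaling of a library changes, was 2.03 in 186wt, 2.02 in 343wt, 2.19 in 444wt and 2.25 in 456wt. The kinase transcript was thus present at 2.12 ± 0.116 (SD, n = 4) times the co-receptor transcript, with little spread over the samples.

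Zbtb16 (ENSMUSG00000066687, chr9:48462416-48644050, minus strand) encodes PLZF, a zinc finger repressor needed to maintain the stem cell pool. Its means were 22.8 FPKM in 186wt, 26.1 FPKM in 343wt, 32.9 FPKM in 444wt and 30.1 FPKM in 456wt, with libraries that overlapped between no 2 samples. The span was 1.44-fold (adjusted p = 1.42e-07, limma F-test). As deposited, 343wt minus 444wt gave -0.33 ± 0.03 (SE), and pan-germ centring turned it to 0.23 (adjusted p = 2.58e-05).

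Sall4 (ENSMUSG00000027547, chr2:168573832-168593443, minus strand), a zinc finger factor of stem and progenitor cells, had the widest span of the set as deposited, 1.82-fold (adjusted p = 2.18e-08, limma F-test). The 3 libraries of 186wt held 19.0, 20.6 and 19.8 FPKM and those of 343wt held 24.7, 25.5 and 23.7 FPKM. Those of 444wt held 35.1, 36.0 and 37.2 FPKM and those of 456wt held 31.4, 32.2 and 31.3 FPKM. The 4 samples were thus fully separated, in the order 186wt, 343wt, 456wt, 444wt. Sall4 was lower in 186wt than in 343wt by a log2 difference of -0.31 ± 0.04 (SE). Pan-germ centring moves every gene of this pair by -0.03, which made it -0.35 and could not change its sign. Its difference of 343wt minus 444wt, -0.55 ± 0.04 (SE), became 0.01 with that centring (adjusted p = 0.814).

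Foxo1 (ENSMUSG00000044167, chr3:52072259-52154031, plus strand), a forkhead factor that acts downstream of PI3K and AKT signalling in spermatogonia, had the narrowest span as deposited, 1.19-fold (adjusted p = 8.71e-05, limma F-test). Its means were 24.0 FPKM in 186wt, 24.7 FPKM in 343wt, 28.7 FPKM in 444wt and 27.4 FPKM in 456wt. Libraries of 186wt and 343wt overlapped, as did those of 444wt and 456wt, and the former 2 samples lay below the latter 2. With pan-germ centring this order turned over, and 343wt minus 444wt went from -0.21 ± 0.03 (SE) to 0.35 (adjusted p = 1.4e-06).

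Id4 (ENSMUSG00000021379, chr13:48356796-48359405, plus strand) encodes an inhibitor of DNA binding that marks a stem-like fraction of these cells, and as deposited it was the gene of the set with its lowest mean in 444wt. The libraries of 186wt held 7.85, 9.38 and 7.75 FPKM, and those of 343wt held 8.13, 8.48 and 7.52 FPKM. Those of 444wt held 6.39, 6.74 and 6.12 FPKM, and those of 456wt held 9.12, 9.21 and 8.59 FPKM. All libraries of 444wt lay below all others, and those of the other 3 samples overlapped except for 343wt and 456wt. Id4 was higher in 343wt than in 444wt by 0.32 ± 0.08 (SE) on the log2 scale (adjusted p = 0.00533), and higher by 0.88 with pan-germ centring. The F-test (adjusted p = 0.00142, span 1.40-fold) rested on 444wt, and without that sample the adjusted p was 0.278. The lincRNA A330033J07Rik overlaps Id4 on the opposite strand, and its mean was 0.233 FPKM.

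Nanos2 (ENSMUSG00000051965, chr7:19572873-19574311, plus strand) encodes an RNA-binding repressor of differentiation found in the most primitive spermatogonia. The libraries of 186wt held 0.75, 0.51 and 0.45 FPKM, those of 343wt 1.09, 0.87 and 1.04 FPKM, those of 444wt 0.8, 1.08 and 0.97 FPKM, and those of 456wt 0.77, 0.79 and 1.01 FPKM. The 186wt libraries were the lowest of all, while the other samples overlapped one another. These values stood on about 33 fragments in 186wt, 71 in 343wt, 59 in 444wt and 53 in 456wt, as estimated from the steps between low FPKM values. The Poisson intervals at 95% for the sample level were 0.388 to 0.792 FPKM in 186wt and 0.783 to 1.27 FPKM in 343wt, and they cover counting error only. The F-test call (adjusted p = 0.0303, limma, span 1.75-fold) was lost without 186wt replicate 2 (0.108) or 3 (0.129), without 343wt replicate 1 (0.0601) or 3 (0.0589), and without 444wt replicate 3 (0.0510). It was lost too without 186wt (0.598) or 343wt (0.0652) as a whole.

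Nanos3 (ENSMUSG00000056155, chr8:86697632-86700451, minus strand), its paralog with a broader range among spermatogonia, stood at 5.02 FPKM in 186wt, 5.89 FPKM in 343wt, 8.06 FPKM in 444wt and 7.18 FPKM in 456wt. Libraries of 444wt and 456wt overlapped, and those of the other pairs of samples did not. The span of 1.61-fold passed the F-test as deposited (adjusted p = 0.000481, limma), but not with pan-germ centring (adjusted p = 0.211). The ratio of Nanos3 to Nanos2 was 8.81 in 186wt, 5.89 in 343wt, 8.49 in 444wt and 8.38 in 456wt, so 343wt held the lowest ratio.

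Lin28a (ENSMUSG00000050966, chr4:133559245-133574756, minus strand) encodes an RNA-binding protein that blocks the processing of let-7 precursors. Its means were 28.5 FPKM in 186wt, 35.0 FPKM in 343wt, 49.6 FPKM in 444wt and 46.2 FPKM in 456wt, with no overlap of libraries between any 2 samples. The span was 1.74-fold (adjusted p = 1.22e-08, limma F-test). Lin28a was lower in 186wt than in 343wt by -0.30 ± 0.03 (SE) on the log2 scale, and by -0.33 with pan-germ centring, which adds to this sign. Its difference of 343wt minus 444wt, -0.50 ± 0.03 (SE), became 0.06 with that centring (adjusted p = 0.143).

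Uchl1 (ENSMUSG00000029223, chr5:67067360-67078472, plus strand) encodes the ubiquitin C-terminal hydrolase known as PGP9.5. Its means were 325 FPKM in 186wt, 329 FPKM in 343wt, 436 FPKM in 444wt and 393 FPKM in 456wt. Libraries of 186wt (324 to 327 FPKM) and 343wt (325 to 334 FPKM) overlapped, and no other samples did. The span was 1.34-fold (adjusted p = 2.05e-09, limma F-test). As deposited, 343wt minus 444wt was -0.40 ± 0.02 (SE), and with pan-germ centring it turned to 0.16 (adjusted p = 8.08e-07).

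The 6 pairs of samples share libraries, so their counts are not independent. For 186wt minus 343wt, 5 genes were called, and all were lower (Zbtb16, Ret, Nanos2, Lin28a and Sall4), where 10.5% of all genes tested were higher and 9.93% lower. The median log2 difference of the 10 genes was -0.19, beside 0.02 over all genes tested, and this was the pair in which centring mattered least. With pan-germ centring 6 were lower and the median was -0.22, beside 1754 higher and 2695 lower of the 20795 genes tested. For 186wt minus 444wt, Id4 was higher and the other 9 genes were lower, beside 16.3% higher and 26.1% lower among all genes. Pan-germ centring gave 3 higher and 2 lower, beside 11600 higher and 261 lower among all genes. For 186wt minus 456wt, 8 genes were lower (all except Nanos2 and Id4), beside 25.9% of all genes lower and 15.5% higher. Here pan-germ centring gave 3 higher and 3 lower, beside 8914 higher and 1507 lower among all genes.

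For 343wt minus 444wt, 7 genes were lower and Id4 was higher, beside 30.4% lower and 17.5% higher among all genes. Under pan-germ centring 7 genes were higher in 343wt and the median turned from -0.31 to 0.25. Over all 20795 genes tested that centring gave 11285 higher and 545 lower, with a median of 0.42. For 343wt minus 456wt, 8 genes were lower, beside 27.6% lower and 14.2% higher among all genes. After pan-germ centring 5 were called, all higher, beside 8781 higher and 1298 lower among all genes. Nanos3 passed this pair narrowly (adjusted p = 0.0423, limma). For 444wt minus 456wt, Zbtb16, Lin28a, Sall4 and Uchl1 were higher and Ret and Id4 lower, beside 13.1% higher and 15.1% lower among all genes. After pan-germ centring 5 were lower, beside 657 higher and 7678 lower among all genes. Lin28a passed this pair narrowly (adjusted p = 0.0464, limma). As deposited, the highest mean lay in 456wt for Gfra1, Ret and Id4 (27.5% of all genes tested). It lay in 444wt for Zbtb16, Sall4, Foxo1, Nanos3, Lin28a and Uchl1 (36.3% of all genes tested). However, Gfra1, Foxo1 and Nanos3 were not called between these 2 samples. With pan-germ centring none of the 10 was highest in 444wt and 7 were highest in 343wt. The share of all genes highest in each sample was not counted after that centring. Genes in general moved the same way, with 11285 called higher in 343wt than in 444wt and 545 lower. Centring on the median of all genes also moved the balance of calls over all genes, from 36.5% to 53.6% higher for 343wt minus 444wt, 33.9% to 52.5% for 343wt minus 456wt, 38.4% to 52.8% for 186wt minus 444wt, 37.4% to 50.1% for 186wt minus 456wt and 51.4% to 39.7% for 186wt minus 343wt. It reversed no call of the 10 genes.

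**Figure D2:**
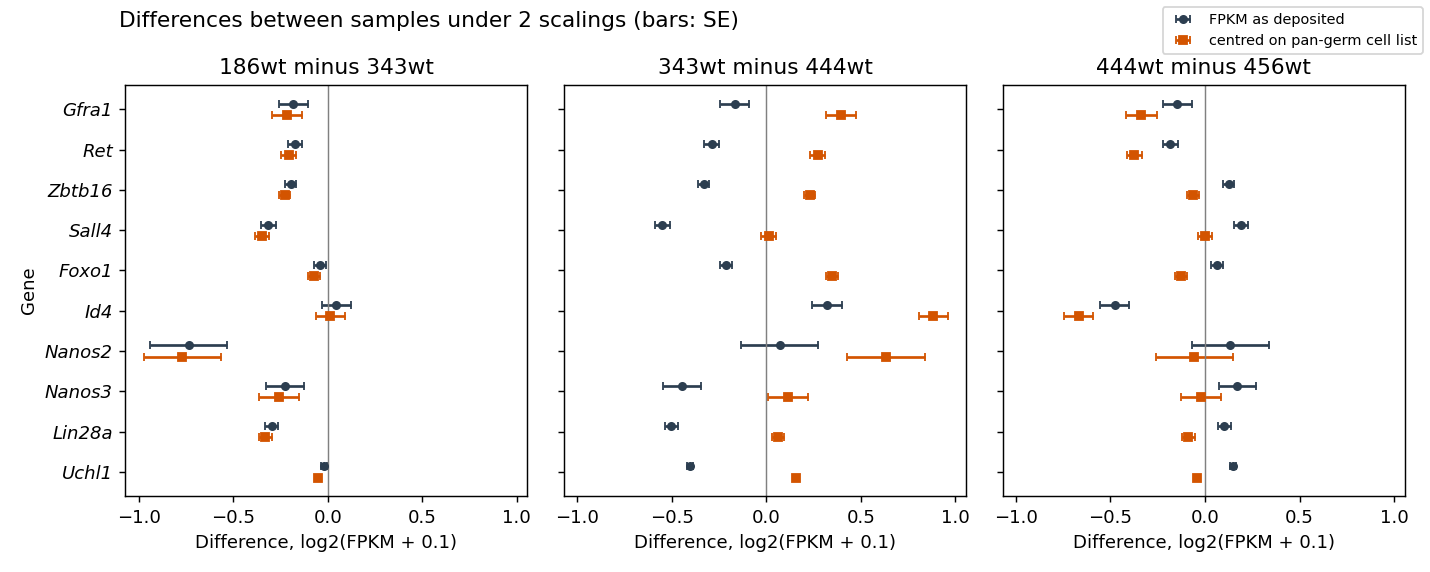
Differences in log2(FPKM + 0.1) between samples for the 10 genes, as deposited (circles) and centred on 6 pan-germ cell genes (squares), with bars of 1 SE from the limma fit. In 186wt minus 343wt, which centring moves by only -0.03, both scalings lie on the same side of 0 for every gene. In 343wt minus 444wt 7 genes are called lower as deposited and 7 higher after centring, when 11285 of all 20795 genes tested are called higher too.

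The paralogs of these genes differed in which member of a family led, and the plot of families shows their levels. Gfra1 exceeded Gfra2 (2.09 ± 0.864 FPKM), Gfra3 (2.68 ± 0.720 FPKM) and Gfra4 (3.82 ± 1.18 FPKM), co-receptors for other ligands of the GDNF family, in 4 of 4 samples. Sall4 exceeded Sall1 (6.32 ± 1.25 FPKM), Sall2 (4.62 ± 1.07 FPKM) and Sall3 (0.440 ± 0.127 FPKM) in 4 of 4 samples, and Lin28a exceeded Lin28b (9.38 ± 1.75 FPKM) by 3.27 to 4.79 times. Uchl1 was above Uchl3 (40.5 ± 4.01 FPKM) by 8.57 to 9.65 times and above Uchl5 (13.8 ± 1.51 FPKM) by 25.7 to 28.5 times. Uchl4 was listed at 0 in the libraries of 3 samples and at 0.07 to 0.08 FPKM in those of 456wt.

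In 2 families the gene of the set did not lead. Foxo3 (44.2 ± 5.51 FPKM) exceeded Foxo1 in 4 of 4 samples, while Foxo4 (10.9 ± 1.49 FPKM) and Foxo6 (14.2 ± 2.37 FPKM) lay below it. Id2 (43.5 ± 9.68 FPKM), Id3 (35.9 ± 4.22 FPKM) and Id1 (21.4 ± 1.43 FPKM) all exceeded Id4 in 4 of 4 samples. Other testis cells also express these widely used genes, and their share was not tested. Nanos1 (6.70 ± 1.53 FPKM) was near Nanos3, above it in 3 of 4 samples, and above Nanos2 in 4 of 4.

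Of 16 paralogs tested, 15 differed between the samples in the F-test, beside 58.2% of all genes tested, and Sall3 did not pass (adjusted p = 0.0550, limma). As deposited, Foxo3, Foxo6 and Id2 were called higher in 186wt and 343wt than in 444wt and 456wt, the opposite order to Foxo1, and that order held with pan-germ centring, which adds to differences of that sign. Id2 (32.6 FPKM), Id3 (30.1 FPKM) and Sall2 (3.56 FPKM) had, like Id4, their lowest mean in 444wt. As deposited, 7 of the 16 paralogs were lowest in 186wt (28.1% of all genes tested), 4 in 343wt (33.7%), 3 in 444wt (21.4%) and 2 in 456wt (16.8%). For 343wt minus 444wt, 5 paralogs were higher and 9 lower, beside 17.5% higher and 30.4% lower among all genes. Their median of -0.33 turned to 0.23 with pan-germ centring.

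**Figure D3:**
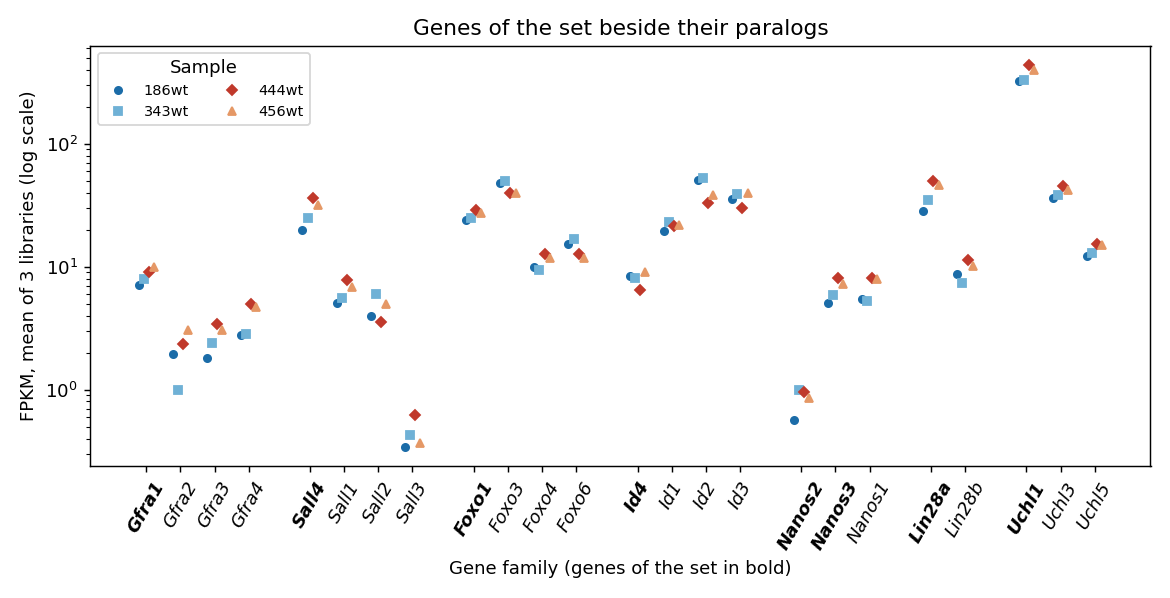
Sample means in FPKM (log axis) of 7 of the genes' families, with genes of the set in bold and Uchl4, listed at 0 in 3 samples, left out. Gfra1, Sall4, Lin28a and Uchl1 are the highest of their families in all 4 samples, whereas Foxo1 lies below Foxo3 and Id4 below Id1, Id2 and Id3.

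Other genes of the GDNF signal, its adaptors and its targets were measured in 18 entries (17 symbols, with Pou3f1 under 2 identifiers). Of these, 13 passed the F-test, where 58.2% of all genes tested did. Dusp6, a phosphatase induced by ERK signalling, was highest on average at 45.3 ± 4.42 FPKM and had the smallest F-test p (adjusted p = 1.84e-06, limma). It was 39.4 FPKM in 186wt, 48.7 FPKM in 343wt, 44.5 FPKM in 444wt and 48.7 FPKM in 456wt. Among adaptors, Grb2 (44.8 ± 1.77 FPKM, adjusted p = 0.593) was not called, and Shc1 (37.03 ± 2.72 FPKM, adjusted p = 0.0162) was, with its highest level in 456wt. Pou3f1, a POU factor that responds to GDNF, had 2 entries, the lowest of the list (ENSMUSG00000078236) at 0.181 ± 0.128 FPKM and the other (ENSMUSG00000090125) at 5.06 ± 1.23 FPKM (adjusted p = 1.85e-05, limma).

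The ligand itself, Gdnf, and 2 transcription factors that GDNF induces, Etv5 and Bcl6b, were picked for their role after their values were seen. Gdnf stood at 3.98 FPKM in 186wt, 4.63 FPKM in 343wt, 3.25 FPKM in 444wt and 3.73 FPKM in 456wt (adjusted p = 0.00200, limma F-test). As deposited, the order of Gdnf over the samples thus differed from that of both receptors. With pan-germ centring Gfra1 was highest in 343wt and lowest in 444wt, the extremes of Gdnf as deposited. Ret was then highest in 456wt and lowest in 444wt. Etv5 stood at 13.7, 16.7, 13.5 and 14.8 FPKM in the same order of samples (adjusted p = 8.52e-05), and Bcl6b at 3.26, 4.14, 5.37 and 4.16 FPKM (adjusted p = 0.000194). For 343wt minus 444wt, 5 entries of the list were higher and 5 lower, beside 17.5% higher and 30.4% lower among all genes. Their median of 0.04 was moved to 0.61 by pan-germ centring.

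Another 21 entries (20 symbols) named for stem or progenitor spermatogonia held 16 that passed the F-test, where 58.2% of all genes tested did. Itga6, an integrin subunit used to enrich stem cells, was highest at 86.2 ± 16.6 FPKM, followed by the adhesion receptor Gpr125 at 55.8 ± 10.6 FPKM and the Polycomb subunit Bmi1 at 48.3 ± 3.67 FPKM. Itga6 was 98.0 FPKM in 186wt, 102 FPKM in 343wt, 67.5 FPKM in 444wt and 77.0 FPKM in 456wt, while Gpr125 was 61.9, 67.5, 47.1 and 46.6 FPKM. Both were called higher in 186wt and 343wt than in 444wt and 456wt, the reverse of most genes of the set as deposited. Pan-germ centring widens these differences of Itga6 and Gpr125, but with it 7 genes of the set were also called higher in 343wt than in 444wt. Glis3, a zinc finger factor, had 2 entries, the lowest of the list at 0.119 ± 0.110 FPKM and the other at 8.57 ± 1.83 FPKM (adjusted p = 4.13e-05, limma). For 343wt minus 444wt, 3 entries were higher and 12 lower, beside 17.5% higher and 30.4% lower among all genes. Their median of -0.27 turned to 0.29 with pan-germ centring.

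Genes of other germ cell stages also differed between these samples. All 8 genes of differentiating spermatogonia passed the F-test (58.2% of all genes tested), and 7 of them were lower in 343wt than in 444wt (30.4%). Their median log2 difference in that pair was -0.59 as deposited and -0.03 with pan-germ centring. Stra8, which responds to retinoic acid and marks the step to meiosis, was the highest at 103 ± 29.3 FPKM, with 77.8 FPKM in 186wt, 89.1 FPKM in 343wt, 145 FPKM in 444wt and 99.1 FPKM in 456wt. Sohlh1 (49.6 ± 12.6 FPKM) and Dmrtb1 (46.7 ± 9.86 FPKM) followed, and Sohlh2 was lowest at 25.04 ± 5.35 FPKM. All 6 pan-germ cell genes were lower in 186wt and in 343wt than in 444wt and in 456wt as deposited, beside 25.9% to 30.4% of all genes by pair. They ran from Dazl (197 ± 41.1 FPKM) through Mael (111 ± 23.4 FPKM) and Ddx4 (86.8 ± 17.2 FPKM) to Dnd1 (21.4 ± 5.06 FPKM). All 17 meiotic prophase genes, led by Stag3 (92.9 ± 18.7 FPKM), Syce2 (77.9 ± 17.5 FPKM) and Sycp3 (73.1 ± 18.1 FPKM), were lower in 343wt than in 444wt as deposited, and 15 of the 17 stayed below 0 with pan-germ centring. Smc1b (47.5 ± 14.2 FPKM) had the smallest F-test p of that list and Mei4 (3.38 ± 0.990 FPKM) the lowest level.

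Markers of other testis cells also differed between the samples, and none of them was listed at 0 in any library. All 10 Sertoli genes were higher in 186wt and in 343wt than in 444wt and in 456wt, beside 14.2% to 17.5% of all genes by pair. Their sum was 4461 FPKM in 186wt, 4636 FPKM in 343wt, 2595 FPKM in 444wt and 2760 FPKM in 456wt. Clu (1844 ± 574 FPKM), Aard (580 ± 174 FPKM) and Cst12 (547 ± 171 FPKM) led the list and Fshr was lowest at 9.25 ± 2.62 FPKM. This order of samples was the opposite of that of the pan-germ cell genes. Pan-germ centring adds to differences of the Sertoli sign, so it could not change that direction. The 6 peritubular myoid genes, led by Acta2 (473 ± 262 FPKM), Myh11 (79.0 ± 38.2 FPKM) and Tagln (66.9 ± 46.3 FPKM) with Des lowest (7.85 ± 3.58 FPKM), summed to 261 FPKM in 343wt and 1161 FPKM in 456wt as extremes.

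The 7 Leydig genes, among them Hsd3b1 (15.6 ± 9.19 FPKM), Insl3 (15.5 ± 13.8 FPKM), Star (11.7 ± 6.49 FPKM) and Lhcgr (1.47 ± 1.19 FPKM), summed to 16.4 FPKM in 444wt and 120 FPKM in 343wt. Next, 8 endothelial genes, among them Cdh5 (9.68 ± 3.63 FPKM), Esam (4.76 ± 2.46 FPKM), Vwf (4.16 ± 0.541 FPKM), Kdr (3.59 ± 1.95 FPKM) and Tek (1.58 ± 0.672 FPKM), summed to 21.1 FPKM in 444wt and 51.2 FPKM in 456wt. Last, 8 macrophage genes, among them Lyz2 (8.01 ± 4.84 FPKM), C1qb (6.12 ± 3.87 FPKM), C1qa (5.47 ± 3.18 FPKM), Csf1r (2.78 ± 1.78 FPKM) and Cd14 (0.811 ± 0.221 FPKM), summed to 9.98 FPKM in 444wt and 45.1 FPKM in 343wt. Sample 444wt thus held the lowest levels of these 3 lists. As deposited, it also held the highest levels of 6 of the 10 undifferentiated spermatogonia genes, beside 36.3% of all genes tested. The part of the other cells in the differences between samples was not tested.

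**Figure D4:**
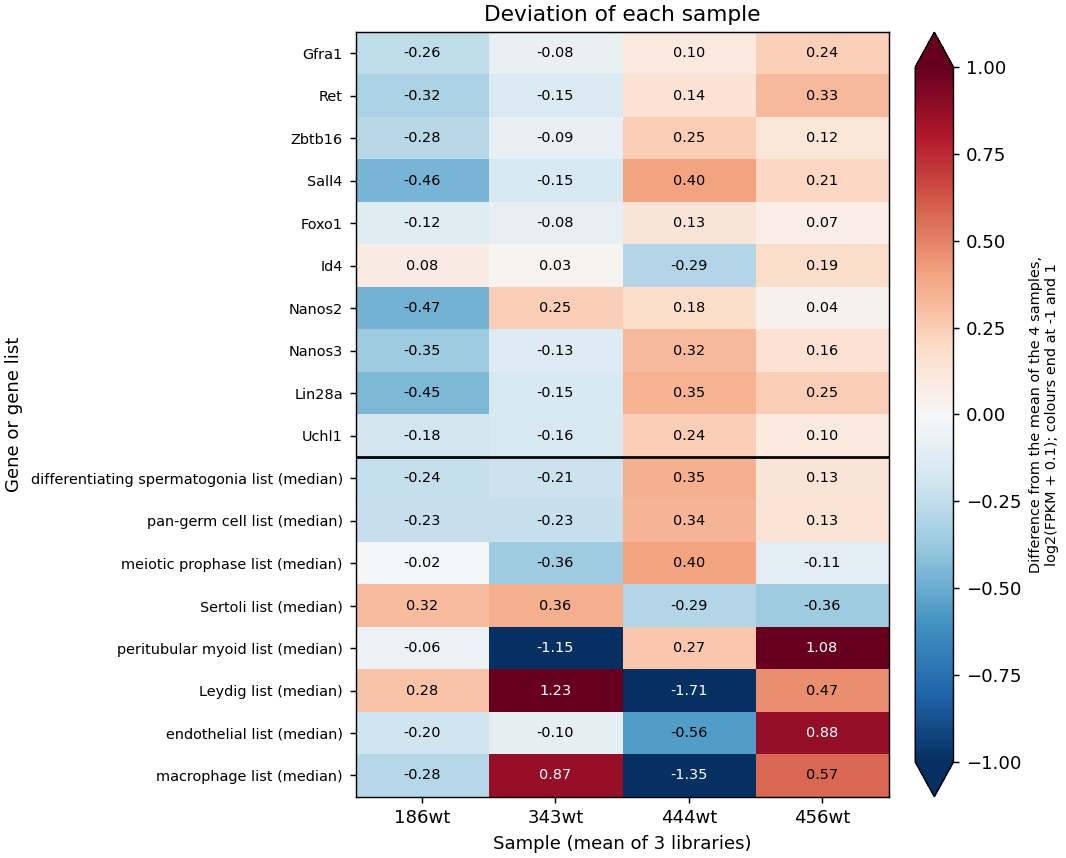
Difference of each sample from the mean of the 4 samples in log2(FPKM + 0.1), as deposited, for the 10 genes (above the line) and the medians of 8 lists (below it). The 186wt column lies below 0 for 9 of the 10 genes as deposited, and with pan-germ centring this side of 0 changes for Foxo1 and Uchl1, while the Sertoli list lies above 0 in 186wt (0.32) and 343wt (0.36).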

How the data were processed

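The measurements are RNA-seq levels in 12 libraries of B6 germ cells, with 3 libraries under each of 4 sample numbers. The other assays of the study were not analysed here. The authors aligned reads with Bowtie 0.12.9 to the NCBIM37 transcriptome, dropped poorly matching reads, computed FPKM with RSEM 1.2.8 and deposited these FPKM, which are rounded and have no counts. A strand setting is not given in the sources used here, so genes overlapping on opposite strands may share fragments (Gfra1, Lin28a, Sall4, Foxo1, Id4 and Uchl1 have such a neighbour, at 0 to 0.558 FPKM). RSEM divides reads that match several transcripts. The members and gene lists were chosen with earlier results of these data known.

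Levels and their SD use the mean of the 3 libraries of a number as 1 sample. The tests instead took the 12 libraries as they stand, 3 to a number, so where the libraries of a number are 1 RNA each arm is 1 sample and the spread is technical. They used limma 3.58.1 in R 4.3.3 (lmFit, eBayes with trend) on log2(FPKM + 0.1) for genes whose mean reached 0.1 FPKM, with an F-test over the 4 samples and 6 contrasts, called at an adjusted p under 0.05. This scale understates the changes of low genes. The script was tested on simulated data. Named genes were all 10 members, every paralog and, of each other list, the 3 highest, the lowest and the one with the smallest F-test p. Gdnf, Etv5, Bcl6b and the second entries of Pou3f1 and Glis3 fall outside this rule and were chosen after their values were seen. Positions come from GENCODE M1 on NCBIM37 and promoters from RefSeq. Meiob and Rhox5 are not in the lists' counts. Depth was estimated from the steps of low FPKM in 191 genes with a single transcript of 300 to 500 bases, at 13.0 to 18.1 M fragments per library (median 15.2 M), where 3 fragments over all 12 libraries on 1 kb come to 0.0164 FPKM. Python 3.11.15 (pandas 2.3.3, scipy 1.17.1, numpy 2.4.6) gave the remaining values, and matplotlib 3.10.9 drew the plots. Alternatives were other pseudocounts, filters and scalings (TPM, the median of all genes, the pan-germ cell genes), robust eBayes, a replicate block, and leaving out each library or sample.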

Additional observations from a re-analysis of the deposited data

Results flagged for a closer look

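The median level of the 17 meiotic prophase genes was 29.9 FPKM in 444wt and 20.2 to 21.6 FPKM in the other 3 samples, which sets 444wt apart by Dixon's ratio (0.856, above the 95% critical value for 4 samples). Of 22 values compared in this way, which included the levels of the 10 undifferentiated spermatogonia genes, this was the 1 set apart, and chance gives about 1.1.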

How the results depend on the processing

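Other pseudocounts, robust eBayes, the median of 3 libraries and a minimum mean of 1 FPKM (which leaves out Nanos2) changed no call or level they gave. Pan-germ centring reversed the sign of 24 differences that were called as deposited, with these log2 values after centring. For 186wt minus 444wt they were 0.0029 for Zbtb16, 0.18 for Gfra1, 0.068 for Ret, 0.28 for Foxo1 and 0.10 for Uchl1. For 186wt minus 456wt they were 0.15 for Foxo1 and 0.062 for Uchl1. For 343wt minus 444wt they were 0.23 for Zbtb16, 0.27 for Ret, 0.12 for Nanos3, 0.060 for Lin28a, 0.012 for Sall4, 0.35 for Foxo1 and 0.16 for Uchl1. For 343wt minus 456wt they were 0.17 for Zbtb16, 0.059 for Gfra1, 0.096 for Nanos3, 0.012 for Sall4, 0.22 for Foxo1 and 0.12 for Uchl1. For 444wt minus 456wt they were -0.063 for Zbtb16, -0.088 for Lin28a, -0.00041 for Sall4 and -0.042 for Uchl1. Among these reversed differences, those of Gfra1, Nanos3, Lin28a and Sall4 were no longer called after centring. Nor were Zbtb16 for 186wt minus 444wt and 444wt minus 456wt and Ret for 186wt minus 444wt, while the rest were called. Of differences not called as deposited, 4 were called with the other sign after pan-germ centring, namely Gfra1 for 343wt minus 444wt (0.39), Id4 for 186wt minus 456wt (0.23) and 343wt minus 456wt (0.21), and Foxo1 for 444wt minus 456wt (-0.13). With pan-germ centring 5 of the 10 genes were called for 186wt minus 444wt and 5 for 343wt minus 456wt, and with median centring 5 for 343wt minus 456wt. The cause was not tested. TPM scaling, median centring and the other fits reversed none.

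Leaving out 1 library at a time gave 9 to 10 genes by the F-test (the loss was Nanos2), 4 to 5 for 186wt minus 343wt, 9 to 10 for 186wt minus 444wt, 8 to 9 for 186wt minus 456wt, 8 to 9 for 343wt minus 444wt, 7 to 8 for 343wt minus 456wt and 5 to 6 for 444wt minus 456wt. The narrow calls lost in these fits were Nanos2, Nanos3 for 343wt minus 456wt and Lin28a for 444wt minus 456wt. The number of genes called by the F-test over the whole table was 9848 (sample 444wt left out) to 13343 (pan-germ centring), beside 12107. Library numbers do not pair the samples: over 18 pairs of same-numbered libraries, deviations from the sample means correlated at -0.065 to 0.128, with 1 pair over 0.1. With the number as a replicate block, 9 of 10 genes passed the F-test, with Nanos2 at an adjusted p of 0.0595 and Lin28a for 444wt minus 456wt at 0.0603. Without a filter on low values Nanos2 stood at 0.0540. Depth limits Nanos2 most, with 8.07 to 25.9 estimated fragments per library.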
